A study of Brassica napus with 2 samples.

Results

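Translation factors and tRNA ligases were taken from the seed transcriptome of *Brassica napus* by the words of their Swiss-Prot descriptions. A unigene, that is 1 assembled transcript cluster, was kept when it carried an assigned *B. napus* gene and its description named a translation initiation factor, an elongation factor, a tRNA ligase, a polyadenylate-binding protein or a peptide chain release factor. Transcription elongation factors were dropped. The rule found 225 of 50366 unigenes, on 190 distinct assigned genes. They were 73 initiation factors, 27 elongation factors, 29 poly(A)-binding proteins and release factors, and 96 tRNA ligases.

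The study asked which genes differ between brown and yellow seeds of near-isogenic lines. The brown group was 1 library of whole field-grown seeds of line Cy2B, genotype *yy*, and the yellow group was 1 library of seeds of line Cy2Y, genotype *YY*, both taken 26 days after flowering. The lines descend from a single selfed heterozygous plant, and yellow is dominant and set by the genotype of the embryo. No source says how many plants or seeds entered a library, and with 1 library per line there is no replicate check, so every test below compares the libraries and not the lines.

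Protein synthesis begins when initiation factors bring the initiator tRNA and the mRNA cap to the small ribosomal subunit. Elongation factors then deliver charged tRNAs and move the ribosome along, and release factors free the finished chain at a stop codon. tRNA ligases, also called aminoacyl-tRNA synthetases, join each amino acid to its tRNA, and poly(A)-binding proteins hold the mRNA tail and contact the cap complex. Maturing oilseed embryos rely on this machinery to make their storage and oil body proteins, and chloroplasts and mitochondria run sets of their own that are encoded in the nucleus.

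The members held 467597 of 23575447 rounded reads in brown and 484028 of 23236592 in yellow seeds, or 1.98% and 2.08%. Scaled to these library totals, the summed ratio of yellow over brown was 1.05, with a 95% exact binomial interval of 1.046 to 1.054, and intervals here and below cover counting error only. Their median level was 15.3 RPKM (reads per kilobase of unigene, scaled to the library total) in brown and 15.8 in yellow seeds, against 1.49 and 1.55 over all unigenes. A mean level of at least 10 RPKM was reached by 136 members (60.4%) and by 23.1% of all unigenes. The 10 members with the highest mean RPKM took 38.6% of the members' reads in brown and 40.3% in yellow seeds. In whole-seed RNA, fewer cells of a type and less RNA per cell cannot be told apart.

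**Figure D1:**
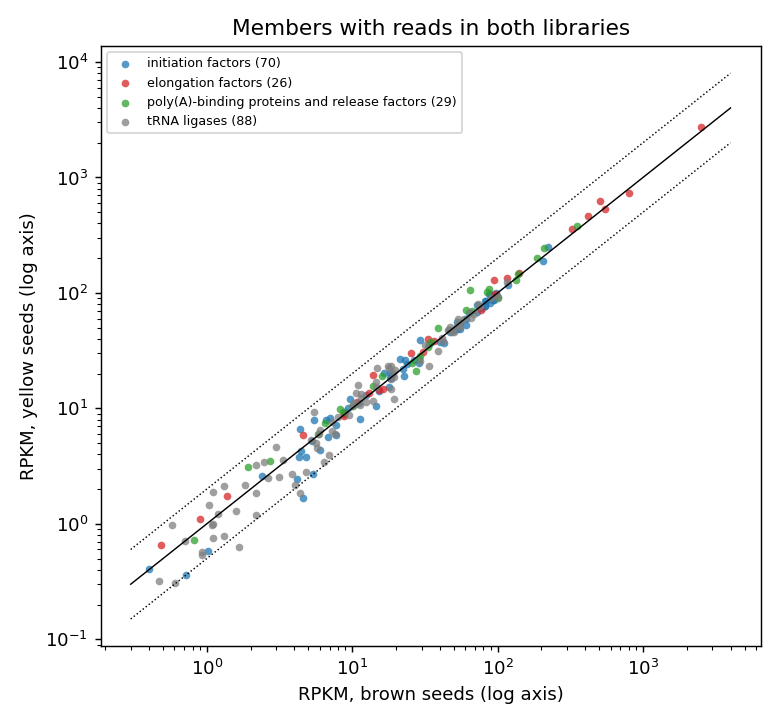
RPKM of the members in brown seeds (horizontal) against yellow seeds (vertical), both on log axes, for members with reads in both libraries, coloured by class. The solid line marks equal levels and the dotted lines a 2-fold difference. Above 10 RPKM every point lies between the dotted lines, and the highest point is the eEF1 alpha unigene at 2525 RPKM in brown and 2727 in yellow seeds.

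Few members differed in size between the libraries. The reads of each unigene were set against the rest of both libraries in Fisher's exact test, two-sided, p-values were adjusted by Benjamini-Hochberg over the 50366 unigenes, and a call needed an adjusted p under 0.05 with a ratio past 2-fold. By this rule 1 member was higher and 1 was lower in yellow seeds, while 3.28% of all unigenes were called higher and 1.47% lower. The study, with DEGseq at the same limits, reported far fewer differing genes, and the reason for this gap was not tested. At 1.5-fold and the same adjusted p, 2 members were higher and 4 lower, beside 4.46% and 2.59% of all unigenes. None of these calls was kept when a biological coefficient of variation of 0.2 was assumed. Of the 195 members that had 20 or more reads in the pair of libraries, 90.8% lay within 1.5-fold, against 82.3% of all unigenes. The other 30 members had fewer reads.

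The number of reads moves with these shares. Of the members with at least 1000 reads 99.1% were within 1.5-fold, beside 95.7% of all such unigenes. For 100 to under 1000 reads the shares were 89.3% and 86.6%, and for 20 to under 100 reads 57.7% and 66.2%. Small ratios were resolved in the abundant members. Without a fold limit, 37 members were higher at an adjusted p under 0.05 (16.4%, all unigenes 8.57%) and 27 were lower (12.0%, all unigenes 7.3%). Among members with at least 1000 reads the shares were 30.1% higher and 15.9% lower, where all such unigenes gave 20.8% and 23.6%.

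**Figure D2:**
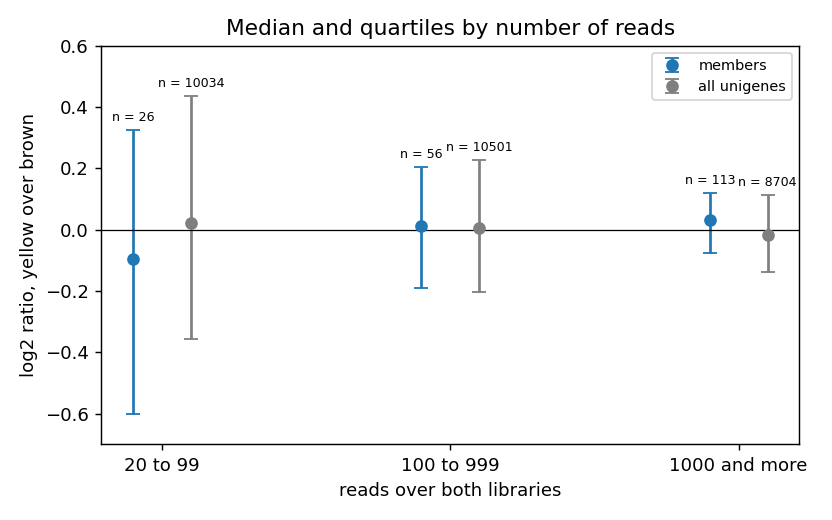
Median (point) and quartiles (bars) of the log2 ratio of yellow over brown by the number of reads over both libraries, for the members and for all unigenes, with the number of unigenes above each bar. The bars narrow as reads increase in both groups, and with at least 1000 reads the medians are 0.03 for the members and -0.02 for all unigenes.

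Class medians lay close to 0. The log2 ratio of yellow over brown, with 1 read added per library, had a median of 0.03 over the 195 members (quartiles -0.11 and 0.15) and of -0.00 over all unigenes with at least 20 reads. It was 0.07 for elongation factors (23 unigenes, 17 above 0) and 0.10 for poly(A)-binding proteins and release factors (29 unigenes, 22 above 0). It was -0.03 for initiation factors (68 unigenes, 27 above 0) and 0.01 for tRNA ligases (75 unigenes, 39 above 0). The summed reads gave 1.09 (1.08 to 1.10) for elongation factors, 1.10 (1.09 to 1.11) for poly(A)-binding proteins and release factors, 0.997 (0.989 to 1.00) for initiation factors and 1.01 (1.00 to 1.02) for ligases. The sum of poly(A)-binding proteins and release factors includes comp54238_c1, a unigene of uncertain annotation with 4849 reads in brown and 7743 in yellow seeds. Its ratio of 1.62 raises that sum, which was not computed without it. With only members of a Swiss-Prot score of at least 300, the median of poly(A)-binding proteins and release factors was 0.049, beside 0.05 for elongation factors, and those of all members and of ligases were -0.00 and -0.01. These are descriptions of a pair of libraries, and the difference between classes was not tested.

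**Figure D3:**
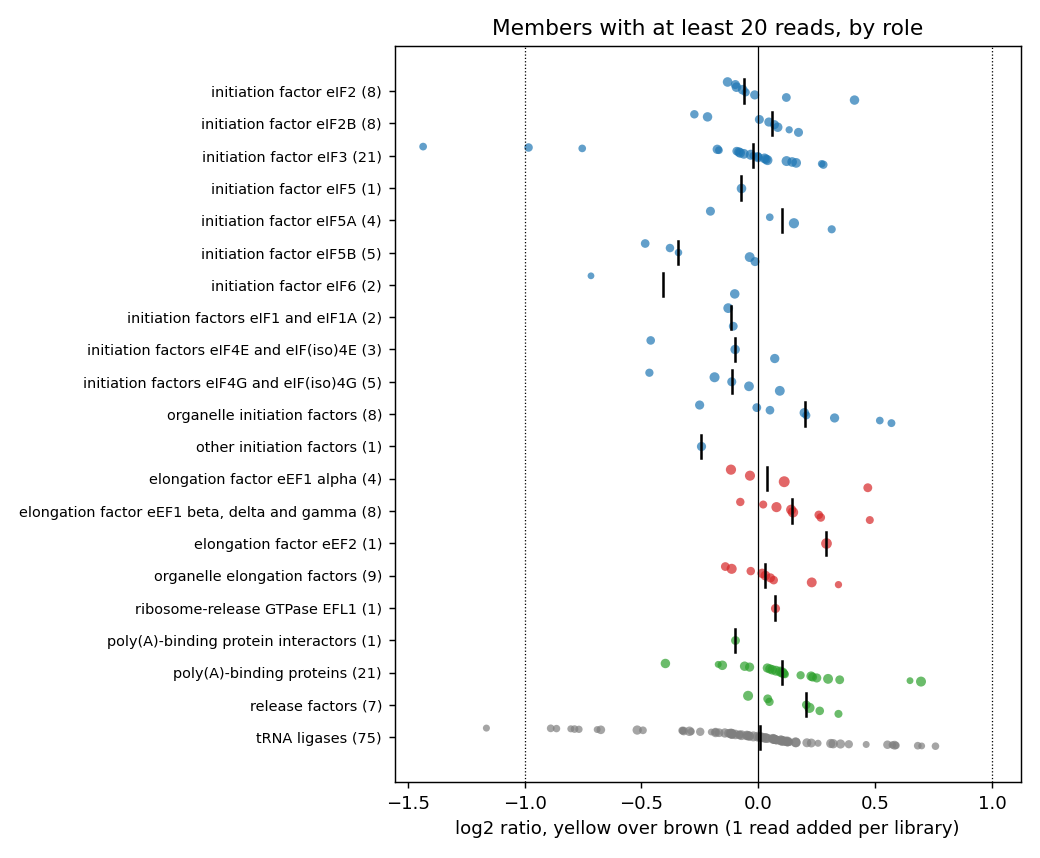
The log2 ratio of yellow over brown for the members with at least 20 reads, in rows by role, with the number of unigenes in brackets. Each point is a unigene, larger with more reads, black bars are medians and dotted lines mark 2-fold. The 5 eIF5B unigenes all lie below 0, and the eIF3 row holds the lowest point, an eIF3 subunit C unigene at -1.43.

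Among the elongation factors, the most abundant member of all was an eEF1 alpha unigene. This protein carries charged tRNAs to the ribosome. The unigene comp55348_c4, assigned to GSBRNA2T00100644001 on chromosome C05 from 2739122 to 2743210, had 60987 reads in the brown library and 64904 in the yellow one (2525 and 2727 RPKM), a ratio of 1.08 (1.07 to 1.09, Fisher's exact test, adjusted p = 3.4e-40). A copy on A06, comp45150_c0, had 11397 and 10357 reads (803 and 740 RPKM), a ratio of 0.922 (0.898 to 0.947). A copy on A03, comp55348_c2, had 8381 and 8058 reads (547 and 533 RPKM), a ratio of 0.975 (0.946 to 1.01).

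The eEF1 alpha copies thus lay on both sides of 1. Genes of this family are near-identical, so reads may have been split between copies by the mapping, and single copies are uncertain. Over all 5 eEF1 alpha members the reads summed to 81231 and 83954, a ratio of 1.05 (1.04 to 1.06). Without comp55348_c4, which held 76.2% of these reads, the ratio was 0.955.

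The subunits that reload eEF1 alpha with GTP lay mostly above 1, with 7 of 8 unigenes above 0 on the log2 scale and 3 higher at an adjusted p under 0.05. The eEF1 gamma unigene comp53280_c0 (GSBRNA2T00019298001, C08) had 15911 reads in the brown library and 17379 in the yellow one (419 and 464 RPKM), a ratio of 1.11 (1.08 to 1.13). The eEF1 delta unigene comp50060_c0 (GSBRNA2T00034967001, A09) had 7861 and 8540 reads, a ratio of 1.10 (1.07 to 1.14). Both were higher by the Fisher's exact test, with adjusted p of 4.2e-19 and 1.3e-08. An eEF1 beta member, comp52703_c0, had 8754 and 9105 reads, but the best NR hit of this 2643-base unigene is a tryptophan/tyrosine permease, so its annotation is uncertain.

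The translocase eEF2, which moves the ribosome by a codon, had the widest ratio among the 10 most abundant members. Its 1 unigene comp55380_c0 (GSBRNA2T00069636001, A04 from 16559973 to 16565387) had 35134 reads in the brown library and 42280 in the yellow one, 509 and 622 RPKM. The ratio was 1.22 (1.20 to 1.24, Fisher's exact test, adjusted p = 1.6e-166).

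The elongation factors of the organelles were mixed. Chloroplast EF-Tu, comp54705_c0 (GSBRNA2T00138076001, C01), had 4742 and 5476 reads, a ratio of 1.17 (1.13 to 1.22, Fisher's exact test, adjusted p = 5.7e-14). Chloroplast EF-G, comp55211_c0, had 8471 and 7714 reads, a ratio of 0.924 (0.896 to 0.953). The summed ratio of the 12 organelle unigenes, which include EF-P with best hits in bacteria, was 1.01 (0.994 to 1.03). A further member that matched the words, comp52719_c0, is a homologue of EFL1, a GTPase of ribosome maturation, with 877 and 909 reads.

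The poly(A)-binding proteins held the member with the most reads past 1.5-fold. The unigene comp54238_c1 (GSBRNA2T00149889001, C04 from 37354480 to 37357121) had 4849 reads in the brown library and 7743 in the yellow one, 65.1 and 106 RPKM. Its ratio was 1.62 (1.56 to 1.68, Fisher's exact test, adjusted p = 1.8e-154). Swiss-Prot describes it as poly(A)-binding protein 2 while its NR hit is PAB4, and its Pfam domains include an EamA-like transporter, so the annotation of this 3156-base unigene is uncertain.

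No other poly(A)-binding protein passed the test at 1.5-fold. The most abundant, comp55216_c2 (GSBRNA2T00004546001, A08), had 15659 and 16569 reads (354 and 380 RPKM), a ratio of 1.07 (1.05 to 1.10). The unigene comp48313_c0 on C03 had 4522 and 5481 reads, a ratio of 1.23 (1.18 to 1.28). In the opposite direction, the only PAB5 unigene, comp53678_c0 on A07, had 2211 and 1654 reads, a ratio of 0.759 (0.712 to 0.809, Fisher's exact test, adjusted p = 7.4e-16).

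In all, 16 of the 21 poly(A)-binding protein unigenes lay above 0, 9 were higher and 2 lower at an adjusted p under 0.05, and their reads summed to a ratio of 1.11 (1.10 to 1.12). This sum includes comp54238_c1, whose annotation is uncertain. The ratio of that unigene, 1.62, lies above the sum and raises it, and the sum was not computed without it. The 2 RBP45 and 5 RBP47 unigenes, related RNA-binding proteins that share the word in their description, summed to 1.06 and 1.09. The interacting protein comp42355_c0 had 526 and 483 reads, a ratio of 0.932 (0.822 to 1.06).

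Release factors were led by eRF1, which reads the stop codon. The unigene comp49767_c0 (GSBRNA2T00144460001, A06 from 20603234 to 20604538) had 10016 reads in the brown library and 11488 in the yellow one, 209 and 244 RPKM, a ratio of 1.16 (1.13 to 1.20, Fisher's exact test, adjusted p = 9.6e-27). Its partner, the GTPase eRF3, comp53767_c0 on A09, had 6901 and 6598 reads, a ratio of 0.970 (0.938 to 1.00) that did not pass the test (adjusted p = 0.26). The 5 release factors of bacterial type had from 91 to 448 reads in brown and from 114 to 454 in yellow seeds, and none passed the test.

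Initiation factors were on balance level. The eIF3 complex, the scaffold on the small subunit, was represented by 22 unigenes of 12 subunits. Summed per subunit, levels ran from 54.9 to 129 RPKM in brown and from 48.6 to 129 in yellow seeds. The ratios ran from 0.885 for subunit J to 1.12 for subunit M. By the Fisher's exact test, the main unigene of subunit A (adjusted p = 9.5e-05) and those of I and M (adjusted p = 0.0023 and 3.8e-05) were higher and that of J was lower (adjusted p = 0.0093), none by 1.5-fold. The only other eIF3 unigenes to pass were 2 of subunit C, both lower.

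The lower-abundance copies of eIF3 subunit C stood apart from the abundant one. The main unigene comp55031_c0 (GSBRNA2T00037115001, A09 from 25988209 to 25991285) had 8348 reads in the brown library and 8046 in the yellow one, 119 and 116 RPKM, a ratio of 0.978 (0.948 to 1.01). The unigene comp43655_c2 (GSBRNA2T00121890001, A09 from 26918276 to 26921384) had 84 and 30 reads, 4.60 and 1.67 RPKM, a ratio of 0.362 (0.230 to 0.556). This was the member called lower (Fisher's exact test, adjusted p = 8.5e-06).

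A further copy lay at the edge of the limit. The unigene comp43655_c0 (GSBRNA2T00155713001, C08 from 29542900 to 29549736) had 348 and 173 reads, 5.37 and 2.71 RPKM, a ratio of 0.504 (0.418 to 0.607, Fisher's exact test, adjusted p = 1.5e-12), just inside 2-fold. With median-ratio scaling both copies were called, and when a coefficient of variation of 0.2 was assumed neither was. The main copy held 96.3% of the eIF3 subunit C reads, whose sum gave 0.953 (0.925 to 0.982). The copies may share reads, so the split between them is uncertain.

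**Figure D4:**
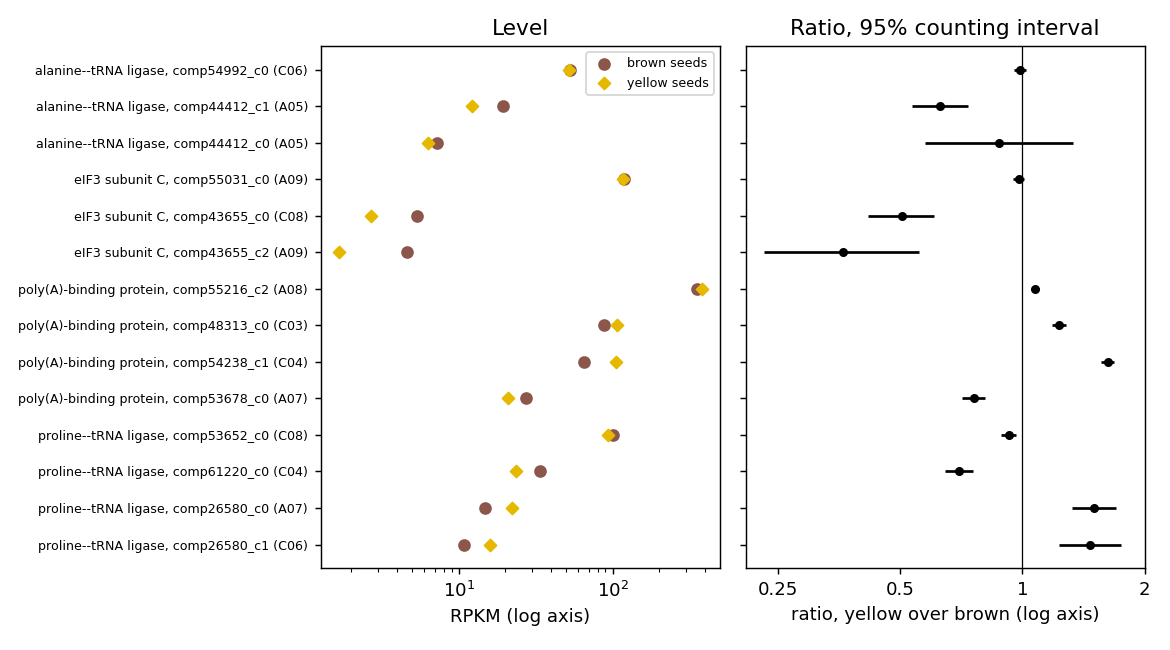
Left, RPKM in brown (circles) and yellow seeds (diamonds), on a log axis, of selected unigenes of alanine and proline ligases, eIF3 subunit C and poly(A)-binding proteins, with the chromosome in brackets. Right, the ratio of yellow over brown with its 95% counting interval, also on a log axis. The main copy of eIF3 subunit C is at 0.978 while the others are at 0.504 and 0.362, and the proline ligases lie on both sides of 1. The unigenes shown were picked after their values were seen.

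Subunit A of eIF3 had a fragment among the lowest ratios, comp33808_c2 on C07 with 64 and 37 reads, a ratio of 0.587 (0.380 to 0.893) that did not pass the test (Fisher's exact test, adjusted p = 0.058). Its main unigene comp55239_c0 had 5653 and 6058 reads, a ratio of 1.09 (1.05 to 1.13) in the opposite direction, and the subunit A reads summed to 1.07 (1.04 to 1.11).

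The factors that recruit the mRNA and the initiator tRNA were close to 1. The eIF2 beta unigene comp49108_c0 (A02) had 2772 reads in the brown library and 2494 in the yellow one, a ratio of 0.913 (0.864 to 0.964), and the 8 eIF2 unigenes summed to 0.994 (0.970 to 1.02). An exception was comp58876_c0 on C09, described as eIF2 alpha, with 1620 and 2124 reads, a ratio of 1.33 (1.25 to 1.42, Fisher's exact test, adjusted p = 2e-16). Its Swiss-Prot score was 137 and it had no Pfam domain, so its annotation is uncertain. The most abundant eIF2 alpha unigene, comp50262_c0 with a score of 776, had 3015 and 2785 reads. Its ratio of 0.937 (0.890 to 0.987) did not pass the test (adjusted p = 0.078). The exchange factor eIF2B, which recycles eIF2, summed to 0.994 (0.962 to 1.03) over 8 unigenes, with its epsilon unigene comp52100_c0 at 2070 and 2161 reads.

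The eIF4G and eIF4E families of the cap complex gave sums below 1. The scaffold eIF4G, comp55052_c0 on C04, had 7490 and 6483 reads, a ratio of 0.878 (0.849 to 0.908, Fisher's exact test, adjusted p = 7.1e-13). The plant-specific isoform eIF(iso)4G unigene comp53706_c0 (A02) had 4503 and 4730 reads, a ratio of 1.07 (1.02 to 1.11). The cap-binding isoform eIF(iso)4E, comp47891_c0 (A05), had 2038 and 1875 reads, a ratio of 0.933 (0.876 to 0.994) with an adjusted p of 0.14 in the Fisher's exact test. Summed, the eIF4G family gave 0.950 (0.930 to 0.971), or 1.01 without comp55052_c0, and the eIF4E family 0.954 (0.910 to 0.999).

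The eIF5B and eIF1A unigenes in the list had ratios below 1, some with intervals that held 1. The GTPase eIF5B joins the ribosomal subunits, and all 5 of its unigenes lay below 0, with a median log2 ratio of -0.34. The main one, comp53827_c0 (A02), had 4875 and 4683 reads, a ratio of 0.975 (0.936 to 1.01), and 3 others shared 1 assigned gene on C08 with 741 and 539 reads in sum, a ratio of 0.738. The remaining one, comp42502_c0, had a ratio of 0.990 (0.893 to 1.10). The median thus rests on unigenes of 1 gene, and the eIF5B reads summed to 0.949 (0.916 to 0.983). The scanning factor eIF1A, comp41533_c0 (C04), had 4187 and 3774 reads (205 and 188 RPKM), a ratio of 0.915 (0.875 to 0.956, Fisher's exact test, adjusted p = 0.00086).

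The factor eIF5A, which helps ribosomes through difficult stretches, was the most abundant initiation factor in the list. Its unigene comp51969_c4 (GSBRNA2T00012720001, C07) had 10821 and 11853 reads (223 and 248 RPKM), a ratio of 1.11 (1.08 to 1.14, Fisher's exact test, adjusted p = 8.3e-14). Smaller families had ratios below 1. The main eIF5 unigene comp45577_c0 had 2481 and 2320 reads, a ratio of 0.949 (0.896 to 1.00). The main eIF6 unigene comp46026_c0 had 2270 and 2086 reads, a ratio of 0.932 (0.878 to 0.990). Neither passed the Fisher's exact test (adjusted p = 0.23 and 0.11). The eIF2D unigene comp50297_c0 had 1174 and 976 reads (ratio 0.843, 0.774 to 0.919).

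Initiation factors of bacterial type, which serve chloroplasts and mitochondria, had a median log2 ratio of 0.20 over 8 unigenes, 6 of them above 0. Among those above 0, 2 IF-2 fragments shared 1 assigned gene, with 154 and 188 reads in sum. The reads of all 8 summed to a lower ratio of 1.09 (1.05 to 1.13), with 2 higher and 1 lower at an adjusted p under 0.05 by the Fisher's exact test. Chloroplast IF-2, comp55174_c0 (C05), had 1951 and 2204 reads, a ratio of 1.15 (1.08 to 1.22, Fisher's exact test, adjusted p = 0.00016). A small IF-2 unigene, comp43468_c0 on C08, had one of the 5 highest log2 ratios among members with at least 100 reads, with 66 and 97 reads, but did not pass the test (adjusted p = 0.072). An IF-3 with a best hit in bacteria, comp54458_c0, had 996 and 1231 reads, a ratio of 1.25 (1.15 to 1.36, Fisher's exact test, adjusted p = 2e-06). An IF-2 with a best hit in bacteria, comp51973_c0, had 1052 and 871 reads, a ratio of 0.840 (0.767 to 0.920).

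tRNA ligases for all 20 amino acids were found, and their sums stayed near 1. Summed per amino acid, the ratio ran from 0.843 (0.797 to 0.893) for tyrosine to 1.12 (1.05 to 1.19) for glutamine. The counting interval lay above 1 for 7 amino acids (aspartate, glutamate, glutamine, glycine, isoleucine, leucine and threonine), below 1 for 6 (histidine, phenylalanine, proline, tryptophan, tyrosine and valine) and held 1 for the other 7. The phenylalanine sum includes a unigene of uncertain annotation, given below. The summed level was highest for proline at 178 RPKM in brown and 173 in yellow seeds, and lowest for glutamine at 31.6 and 35.3. Sums count fragments of 1 gene more than once per length, so they order the amino acids only roughly.

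**Figure D5:**
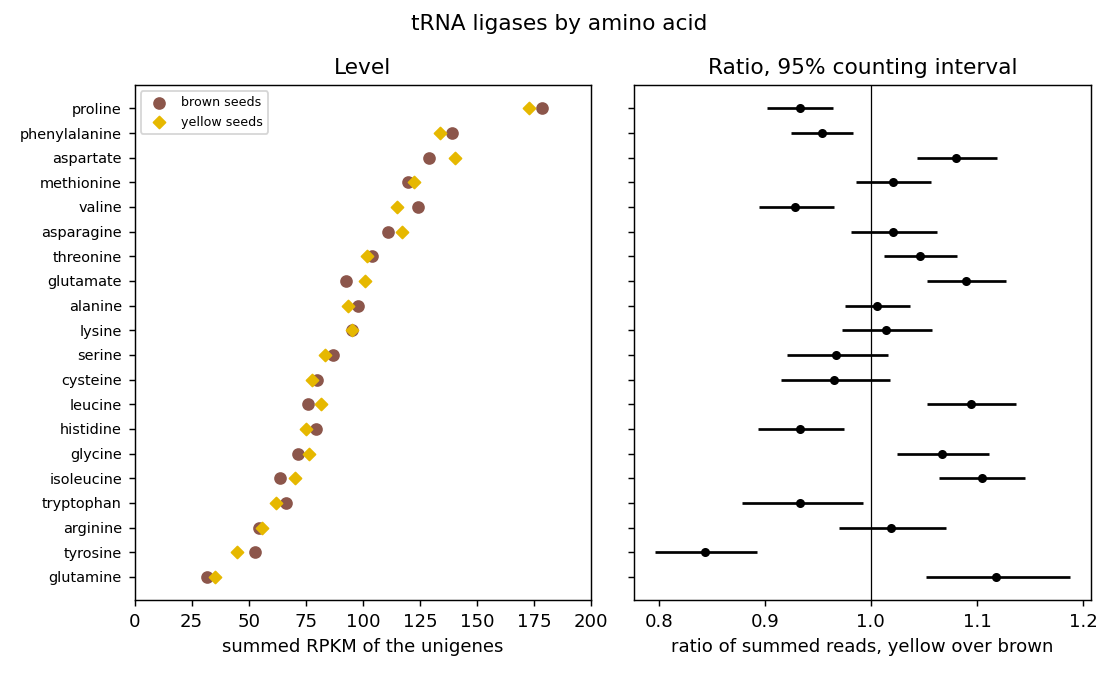
Left, summed RPKM of the tRNA ligase unigenes of each amino acid in brown (circles) and yellow seeds (diamonds). Right, the ratio of their summed reads, yellow over brown, with its 95% counting interval. All ratios lie between 0.843 for tyrosine and 1.12 for glutamine.

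The most abundant ligase was the cytosolic aspartate enzyme, comp50765_c0 (GSBRNA2T00084554001, C05), with 5511 reads in the brown library and 5848 in the yellow one (116 and 124 RPKM), a ratio of 1.08 (1.04 to 1.12). The tyrosine enzyme comp50599_c0 (GSBRNA2T00157911001, C07) had 2259 and 1815 reads, a ratio of 0.815 (0.766 to 0.868, Fisher's exact test, adjusted p = 2.4e-09). It was the lowest among the leading unigenes of the 20 amino acids. The remaining leading unigenes had ratios from 0.905 for tryptophan, comp50310_c0, to 1.12 for leucine, comp53856_c0, and glutamine, comp52589_c0.

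Proline ligases pointed both ways. The main unigene comp53652_c0 (GSBRNA2T00127078001, C08) had 4298 and 3917 reads (101 and 93.0 RPKM), a ratio of 0.925 (0.885 to 0.966). The unigene comp61220_c0 on C04 had 1567 and 1078 reads, a ratio of 0.698 (0.645 to 0.755, Fisher's exact test, adjusted p = 2.7e-18). Opposite to it, comp26580_c0 on A07 had 442 and 653 reads, a ratio of 1.499 (adjusted p = 1.1e-09), and comp26580_c1 on C06 had 219 and 317 reads, a ratio of 1.47 (1.23 to 1.75, adjusted p = 0.00018). Over all 5 proline members the sum gave 0.933 (0.902 to 0.964).

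The study measured free alanine and phenylalanine, so every ligase of these amino acids is given. The main alanine ligase comp54992_c0 (GSBRNA2T00074976001, C06) had 6772 reads in the brown library and 6577 in the yellow one, a ratio of 0.985 (0.952 to 1.02). The chloroplast enzyme comp53448_c0 had 1252 and 1541 reads, a ratio of 1.25 (1.16 to 1.35, Fisher's exact test, adjusted p = 1.1e-07).

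An alanine ligase gene on A05, GSBRNA2T00042886001 from 10465410 to 10471561, was covered by 2 unigenes. Of these, comp44412_c1 had 415 and 256 reads, a ratio of 0.626 (0.533 to 0.733, Fisher's exact test, adjusted p = 5.9e-08), and comp44412_c0 had 52 and 45 reads, a ratio of 0.878 (0.576 to 1.33). Summed over the 4 alanine members the ratio was 1.01 (0.976 to 1.04).

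For phenylalanine, the main alpha subunit comp52831_c0 (GSBRNA2T00056636001, on an unanchored scaffold of C08) had 4265 and 3999 reads, a ratio of 0.951 (0.911 to 0.993, Fisher's exact test, adjusted p = 0.12). The beta subunit comp51356_c1 had 941 and 903 reads, and the organelle enzyme comp52979_c0 had 1320 and 1364. A unigene described as a beta subunit, comp51356_c0, had 1942 and 1686 reads, a ratio of 0.881 (0.825 to 0.941, Fisher's exact test, adjusted p = 0.0016), but its Swiss-Prot score was 97 and its NR hit is a steroid dehydrogenase family protein. The phenylalanine sum, a ratio of 0.954 (0.925 to 0.983), includes comp51356_c0 and was not computed without it. The place of phenylalanine among the amino acids with an interval below 1 was therefore not checked without this unigene.

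The member called higher was a fragment of a phenylalanine ligase alpha subunit. The 376-base unigene comp194206_c0 (GSBRNA2T00081871001, A09 from 6693151 to 6695054) had 0 reads in the brown library and 8 in the yellow one, at least 2.71-fold higher with the brown count bounded at 3 reads (Fisher's exact test, adjusted p = 0.027). The call rests on these 8 reads and was lost with median-ratio scaling, the DEGseq formula, a minimum of 20 reads, a Swiss-Prot score of at least 300 or an assumed coefficient of variation of 0.1 or 0.2. In all, 7 members (3.11%) had reads only in yellow and 5 (2.22%) only in brown seeds, where all unigenes gave 12.2% and 10.3%, none of the members with more than 8 reads in yellow.

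Other ligases past 1.5-fold or among the extreme ratios were of low abundance. A serine ligase unigene, comp39929_c0 (GSBRNA2T00109450001, C09), had 76 and 40 reads, a ratio of 0.534 (0.355 to 0.793, Fisher's exact test, adjusted p = 0.0099). The main serine unigene comp48217_c0 had 2602 and 2396 reads, a ratio of 0.934. A lysine ligase unigene, comp44375_c0, had 42 and 67 reads, a ratio of 1.62 (1.08 to 2.44) that did not pass the test (adjusted p = 0.086).

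Valine ligase was spread over 12 unigenes, of which 9 were assigned to unanchored scaffolds and 10 were under 500 bases. The main unigene comp55346_c0 had 4759 and 4334 reads, a ratio of 0.924 (0.887 to 0.963), and held 84.3% of the reads.

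Members grouped by organelle words and by best hits had close medians, and no group was defined as cytosolic. The median log2 ratio was 0.07 over 22 members whose description names a chloroplast or mitochondrion, 0.07 over 27 with a best hit in bacteria and -0.01 over the other 146. Among ligases alone the medians were 0.07, 0.07 and -0.06. By place in the genome the medians were 0.01 for 83 members on A chromosomes and 0.03 for 99 on C chromosomes, and single chromosomes ran from -0.10 (A05, 9 members) to 0.15 (A08, 10 members).

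Unigenes assigned to the same gene did not always move together. There were 24 such genes with 59 unigenes, and in the 16 with at least 2 unigenes of 20 reads the log2 ratios differed by a median of 0.35, from 0.07 to 1.37. The widest was a lysine ligase gene, GSBRNA2T00022922001, at -0.69 and 0.68. Its 2 unigenes held only 59 reads in brown and 77 in yellow seeds in sum, and 0 lysine ligase unigenes passed the Fisher's exact test. A Swiss-Prot score under 300 was found for 66 members.

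Other genes of the pathway were placed by words in their descriptions. Cytosolic ribosomal proteins had a median log2 ratio of 0.13 (139 unigenes, 114 above 0) and a summed ratio of 1.09 (1.08 to 1.09), with 70 higher and 6 lower at an adjusted p under 0.05 by the Fisher's exact test. Organelle ribosomal proteins had a median of 0.02 (86 unigenes), ribosome biogenesis proteins -0.03 (49) and tRNA modification proteins 0.03 (39). The helicase eIF4A, whose description lacks the word translation and so lies outside the rule, had 18511 and 24164 reads in comp54868_c1 (ratio 1.32) and 11669 and 9360 in comp52153_c1 (ratio 0.814). Unigenes described as protein translation factor SUI1 homologues also lie outside the rule. Their ratios were 1.04 for comp53918_c1, 1.05 for comp41301_c0, 1.23 for comp31691_c0 and 0.716 for comp34765_c0.

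Markers of seed tissues moved between the same libraries. Storage proteins summed to 385 RPKM in brown and 1576 in yellow seeds with 14 of 25 unigenes called higher and 1 lower, and oil body proteins to 588 and 1474 RPKM with 12 of 18 called higher and 1 lower. Photosystem proteins summed to 4475 and 5640 RPKM with none of 38 called past 2-fold but 24 higher and 3 lower at an adjusted p under 0.05, and the 2 seed coat mucilage markers to 152 and 113. Of the mucilage marker reads, comp46770_c0 held 70.9%, and the other unigene had a ratio of 0.997. The 19 endosperm markers summed to 1230 and 1550 RPKM, of which SWEET15 alone held 56.9% of the reads, with none called. The ratio of their summed reads was 1.20, and 0.973 without the SWEET15 unigene. Of the 16 endosperm markers with at least 20 reads, 7 lay above 0 and 9 below, with a median log2 ratio of -0.05. Of the unigenes in these lists, 4 storage proteins, 1 oil body protein and 1 photosystem protein had 0 reads in brown, and 1 storage protein and 2 endosperm markers had 0 in yellow seeds. Whether the ratios of the translation genes follow the makeup of the seeds was not tested.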

How the data were processed

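Poly(A) RNA of whole seeds was sequenced with 1 library per line. Reads with adapters, unknown or low-quality bases were removed by the authors, and both libraries were assembled with Trinity. The assigned genes are those of *B. napus* cv. Darmor-bzh, found by the authors with Megablast. For the aligner and the counting tool, no name is given in the sources used here. Estimated counts per unigene were deposited by the authors without scaling and were rounded to whole numbers. RPKM values were computed by the authors from count, length and a library total.

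Counts were compared by Fisher's exact test, two-sided (SciPy 1.17.1), with Benjamini-Hochberg adjustment over 50366 unigenes. A call needed a log2 ratio above 1 or below -1 and an adjusted p under 0.05. Medians used members with at least 20 reads and 1 read added per library. The study used DEGseq, whose formula was written out as an alternative. Others were TMM (edgeR 4.0.16) and median-ratio (DESeq2 1.42.0) scaling, edgeR's exact test assuming a biological coefficient of variation (0.1 or 0.2), minimum reads, sums per assigned gene, other pseudocounts and, chosen after seeing the data, a Swiss-Prot score of at least 300. Python 3.11.15, numpy 2.4.6, pandas 2.3.3 and R 4.3.3 were used, and the scripts were tested on simulated data.

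Named members were those called, the 10 with the highest mean RPKM, the 5 highest and 5 lowest log2 ratios with at least 100 reads, the most abundant of each role and amino acid, every alanine and phenylalanine ligase, and any with 0 reads in 1 library and at least 10 in the other (none was found). Further members were chosen after their values were seen. Members and lists were chosen with earlier results of these data known. Of the 190 assigned gene identifiers, 0 matched the RefSeq table, so symbols come from the deposited descriptions.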

Additional observations from a re-analysis of the deposited data

How the results depend on the processing

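The count of members called higher fell from 1 to 0 with median-ratio scaling, the DEGseq formula, an assumed coefficient of variation of 0.1 or 0.2, a minimum of 20 reads and a Swiss-Prot score of at least 300. The count called lower was 2 with median-ratio scaling and 0 with a coefficient of 0.2. Past 1.5-fold, 1 member was higher with median-ratio scaling, the DEGseq formula, a coefficient of 0.1 or a minimum of 20 reads, and 0 with a coefficient of 0.2. Past 1.5-fold, 2 members were lower with a coefficient of 0.1 and 0 with 0.2. The median of poly(A)-binding proteins and release factors was 0.049 with a score of at least 300, where the medians of all members and of ligases were -0.00 and -0.01. Of the 70 values computed under alternatives, the other 54 kept to within 1.5 times the count or within the range set for them. All log2 ratios shifted by 0.01 under TMM and by -0.02 under median-ratio scaling, so a class median within 0.02 of 0 has no firm sign.

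No paired analysis was possible because each line has 1 library, and there was no replicate to leave out. Counts near 1 or 2 members and unigenes with under 100 reads are limited by depth. Seed-to-seed variation was not measured, and the assumed coefficients of variation are not estimates from these data.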

Other observations

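A further 33 unigenes matched the words of the description but lacked an assigned gene, and 18 (54.5%) had reads only in yellow seeds, 2 (6.06%) only in brown and 13 in both. Over all 21595 unigenes without an assigned gene, 20.9% had reads only in yellow and 17.2% only in brown seeds. The most abundant had reads in both libraries. EF-Ts, comp49149_c0, had 3046 reads in the brown library and 2883 in the yellow one, the cap-binding eIF4E-1, comp47787_c0, had 2643 and 2356 (ratio 0.904, 0.855 to 0.956, Fisher's exact test, adjusted p = 0.0042), and eIF3 subunit F, comp49588_c0, had 1245 and 1215.

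By the same Fisher's exact test with Benjamini-Hochberg adjustment over all unigenes, 6 of the 33 (18.2%) were called higher in yellow seeds and 1 (3.03%) was called lower, beside 3.28% and 1.47% of all unigenes and 4.05% and 1.66% of those without an assigned gene. Elongation factor 3, a factor known from fungi, was the description of 3 of the 6. The unigene comp317624_c0, with a best NR hit in *Agaricus*, had 0 reads in the brown library and 9 in the yellow one, and comp369476_c0 and comp399238_c0, with hits in *Laccaria*, each had 0 and 7. An eEF1 alpha unigene with a hit in *Laccaria*, comp212986_c0, had 0 and 14 reads, and one with a hit in *Megacollybia*, comp277501_c0, had 0 and 10. The sixth, eIF5A comp232880_c0 with a hit in *Populus*, had 0 and 7. The unigene called lower, comp12538_c0, had 8 and 0 reads and is an eEF1 alpha with a hit in the moth *Corcyra*. All these counts are low, and the source of the reads was not tested.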
